A study of Homo sapiens with 2 samples.

Results

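The TRIM genes encode tripartite motif proteins, most of them ubiquitin ligases, and are described here by the m6A peaks on their transcripts in HCCLM3 cells. HCCLM3 is an established line of human liver cancer (hepatocellular carcinoma). They were taken by name, as protein-coding genes whose symbol is TRIM followed by a number and, in some, a letter. This gave 73 genes of 20056 protein-coding genes. A peak was counted for a gene if its summit lay in the gene's RefSeq span on hg38. By this rule 36 TRIM genes held 95 peaks, of 39801 peaks in the whole list. Both libraries came from HCCLM3 cells of wild-type genotype: 1 library of RNA recovered with an m6A antibody (m6A-RIP) and 1 library of input RNA. There was no replicate of either, so no value below has a replicate check and no test between genes or groups of genes was made.

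N6-methyladenosine, or m6A, is a methyl mark placed on adenosines of mRNA as it is made, most often in long internal exons and near stop codons and in 3' UTRs. Reader proteins such as YTHDF2 bind it in the cytoplasm and affect how long the mRNA lasts and how it is translated. TRIM proteins share a RING finger, one or more B-boxes and a coiled coil at their N-terminal end. The RING finger brings in a ubiquitin-loaded conjugating enzyme, and the C-terminal domain, which differs between classes of TRIM proteins, chooses the target. The family is best known for innate antiviral defence, but also holds transcription cofactors, muscle proteins and proteins of the developing embryo.

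A peak list shows where the antibody fraction stood above input. It does not measure how much of each RNA the cells made. A gene without a peak may lack the mark, may have had too little RNA, or may have had reads that aligned to several places. Of 10 hepatocyte markers, 5 held a peak, a share like the 49.3% of all protein-coding genes that says nothing of the cell type, among them the regulator HNF4A, while ALB, APOA1, APOC3, TTR and SERPINA1 held none. Of 5 immune markers only CD8A held a peak, on 3 fragments and with a q-value of 1. Of 3 endothelial markers only PECAM1 held any, with 4 peaks, the strongest of fold 5.37 on 39 fragments. These presences and absences follow the same limits and were not read as expression.

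Sequence bears directly on how to read one pair of TRIM genes. TRIM73 and TRIM74 are near-identical copies, related to TRIM50, in the segmental duplications around the Williams syndrome region of chromosome 7. Each held 1 peak, near its start. The stretches below are the first 60 bases of RefSeq promoter windows (GRCh38.p14) that the peaks largely cover, each read along its gene, TRIM73 from chr7:75395379-75395438 on the plus strand and TRIM74 from chr7:72969657-72969716 on the minus strand. The capital marks the only base at which the windows differ, A220C from TRIM73 to TRIM74, with positions counted in bases before the transcript start.
TRIM73: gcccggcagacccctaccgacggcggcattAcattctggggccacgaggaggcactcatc
TRIM74: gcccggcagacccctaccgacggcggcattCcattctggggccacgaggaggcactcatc

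The windows run from 250 bases before to 50 bases after the transcript start and are identical at 299 of 300 bases (99.7%). The TRIM73 peak covers 282 bases of its window and the TRIM74 peak 280 bases, and the differing base lies inside both peaks. Fragments from one copy and from the other could be told apart in this window by that base alone. The summits, where fold and fragments were read, lay outside the windows. They were 56 bases (TRIM73) and 232 bases (TRIM74) after the transcript start, and the sequence there was not compared. The TRIM73 peak had a fold over input of 7.08 (interval 4.31 to 11.1) on 16 RIP fragments over an input level of 0.592. The TRIM74 peak had a fold of 2.31 (1.47 to 3.47) on 20 RIP fragments over an input level of 5, with a q-value of 0.571. The intervals of the folds did not overlap, but they hold input fixed. RIP fragment numbers were similar, so the gap lay in the unequal input levels, whose counting error the intervals do not cover. How aligned reads were divided between the copies is not given in the sources used here. Both genes are therefore uncertain, and the authors' table gives each peak to another gene, without a symbol.

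Here fold is the linear ratio of m6A-RIP to input at the summit that the authors' peak caller gave for each peak, with a pseudocount of 1 in both parts. The interval beside it is a 95% Poisson interval on the number of RIP fragments recovered from fold and p-value, with input held fixed, and it covers counting error only. The input level is the input value that the caller used at the peak, and the lowest in the list was 0.246. Folds over input levels near that value rest on very little input. The q-value is the caller's p-value adjusted over the whole list.

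The share of TRIM genes with a peak was that of protein-coding genes at large. It was 36 of 73 TRIM genes (49.3%), against 9881 of 20056 protein-coding genes (49.3%). At a q-value under 0.05 it was 29 TRIM genes (39.7%), against 38.9% of all protein-coding genes. At a q-value under 1e-5 it was 21 TRIM genes (28.8%), against 28.4%. With a fold of at least 4, 22 TRIM genes held a peak (30.1%), against 30.9%. With at least 10 RIP fragments at the summit, 30 did (41.1%), against 39.3%, and without intron-labelled peaks 33 did (45.2%), against 43.2%. By the gene of the nearest transcript start that the authors' table gives, with intergenic-labelled peaks left out, 29 did (39.7%), against 46.3%. The family as a whole thus stood near the background by each rule based on the span, and below it by the nearest start, and what follows describes which members carried the peaks.

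Peak-bearing members were found more often among the longer genes. Their median span was 24110 bp, against 12596 bp for the 37 TRIM genes without a peak and 24093 bp for all protein-coding genes. Of the TRIM genes spanning under 10 kb, 4 of 19 held a peak (21.1%), against 25.5% of all protein-coding genes of that span. Between 10 and 50 kb, 21 of 40 did (52.5%), against 50.8%. Over 50 kb, 11 of 14 did (78.6%), against 68.9%. The same order was seen over all protein-coding genes. A longer span offers more sequence in which a summit can fall, but whether that explains the order was not tested.

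**Figure D1:**
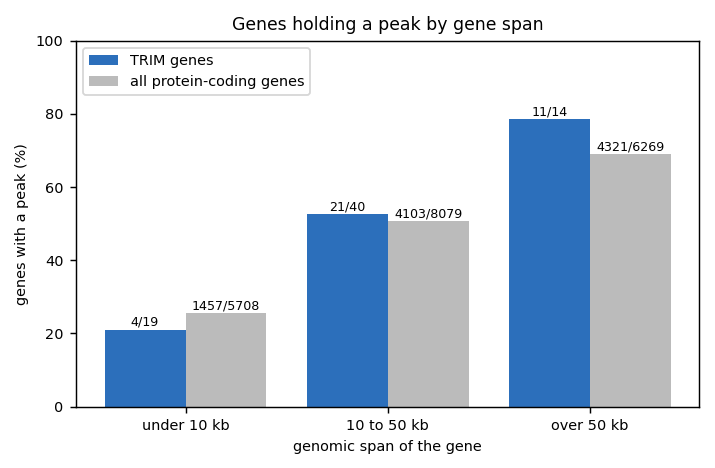
Percent of genes holding at least 1 peak (vertical axis) in 3 classes of genomic span, for TRIM genes (left bar) and all protein-coding genes (right bar), with counts of genes above the bars. In both sets the share is lowest under 10 kb and highest over 50 kb.

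The highest fold per gene was also near that of other genes, while fragment numbers and the share of peaks with a low q-value stood above. The highest fold per TRIM gene had a median of 4.86 (quartiles 2.85 to 6.62), against 4.73 (3.38 to 6.64) over all protein-coding genes with a peak. A TRIM peak had a median of 16 RIP fragments, against 12 for peaks in all protein-coding genes. Of the 95 TRIM peaks, 62 had a q-value under 0.05 (65.3%, Wilson interval 55.3 to 74.1), against 53.7% of peaks in all protein-coding genes. The highest TRIM fold was 10.7 and the lowest per-gene maximum was 1.83, while the highest fold in any protein-coding gene was 28.5. In 14 TRIM peaks the summit rested on at most 3 RIP fragments. Among the genes, 13 held 1 peak, 9 held 2 and 14 held 3 or more.

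**Figure D2:**
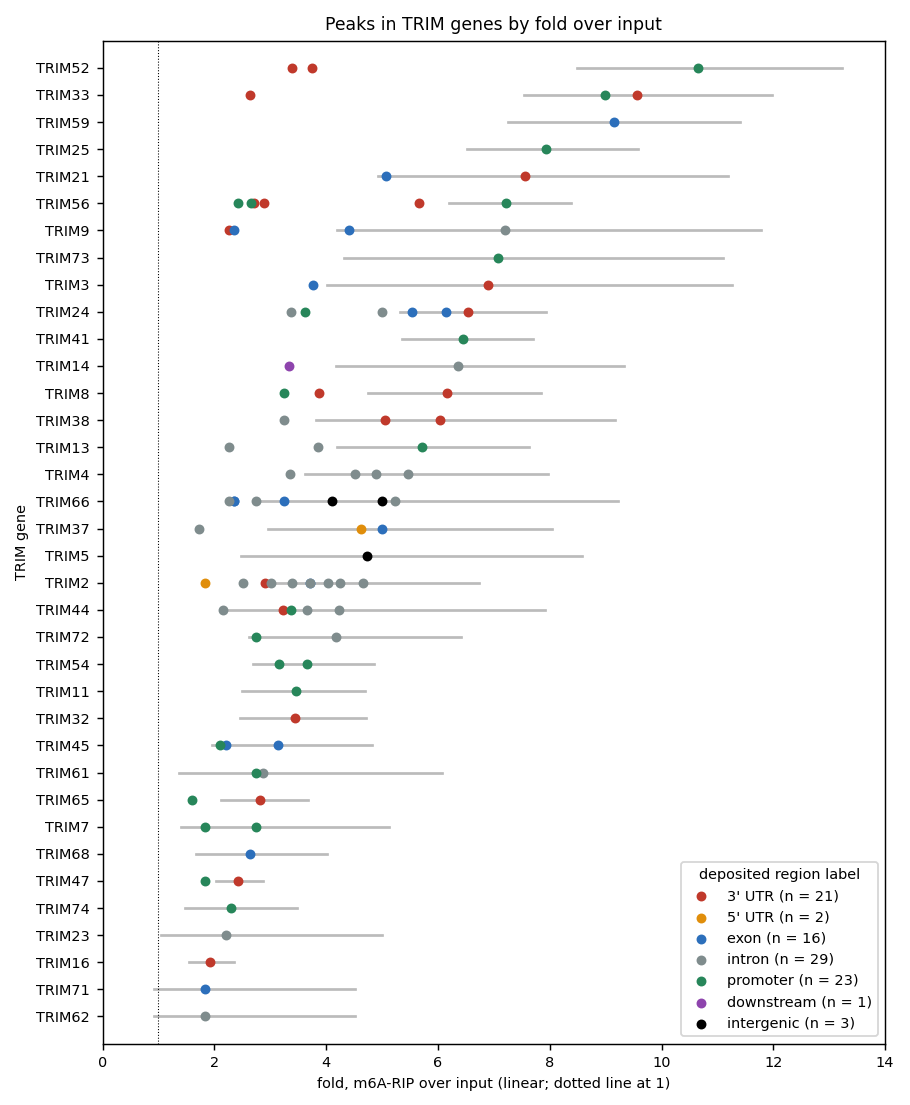
Fold of m6A-RIP over input (horizontal axis, linear) for all 95 peaks in the 36 TRIM genes with a peak, ordered by their highest fold and coloured by the region label of the authors' table. Grey bars are 95% Poisson intervals of each gene's highest peak, which run from the widest in TRIM9 and TRIM3, on 13 fragments each, to the narrowest in TRIM16, on 90.

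Region labels of the TRIM peaks were spread over the transcript. Introns held 29 of 95 peaks (30.5%, Wilson interval 22.2 to 40.4), against 44.4% of peaks in all protein-coding genes. Promoter labels covered 23 (24.2%, 16.7 to 33.7), against 14.97%. The 3' UTRs held 21 (22.1%, 14.9 to 31.4), against 18.8%, and exons 16 (16.8%, 10.6 to 25.6), against 18.1%. With a fold of at least 4 the order turned for both main classes, with 3' UTRs holding 21.6% of TRIM peaks, against 27.0%, and introns 32.4%, against 30.6%. The intron gap narrowed among peaks of lower q-value. At a q-value under 0.05 introns held 24.2% of TRIM peaks and 27.1% of peaks in all protein-coding genes, and at a q-value under 1e-5 they held 16.7% and 16.4%. Peaks of 1 gene share their transcript, so these intervals cover counting error only.

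**Figure D3:**
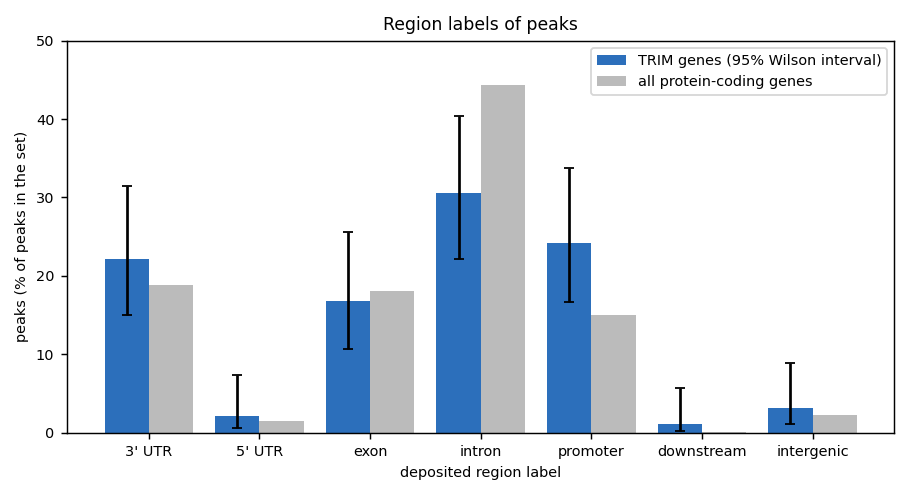
Percent of peaks with each region label of the authors' table, for the 95 peaks in TRIM genes (left bars, with 95% Wilson intervals) and the 30222 peaks in all protein-coding genes (right bars). The TRIM interval lies below the right bar for introns and above it for promoter labels, over all peaks, and the downstream label covers 1 TRIM peak.

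A promoter label here does not always point to the start of a TRIM gene, since it reaches 3 kb from any transcript start. Of the 23 promoter-labelled TRIM peaks, 14 were labelled from the TRIM gene's own start and 9 from another gene's. In TRIM25 and TRIM11 a microRNA lies in the span of the gene, within 3 kb of the peak. MIR3614 lies in TRIM25 on chromosome 17 from 56891270 to 56891355, with 471 bases between its hairpin and the TRIM25 peak. MIR6742 lies in TRIM11 on chromosome 1 from 228397048 to 228397109, with 2001 bases between its hairpin and the TRIM11 peak. The label of neither peak comes from the start of its TRIM gene, and the authors' table gives no gene symbol for either. Whether the microRNA starts gave these labels was not tested. The mature RefSeq sequences of both microRNAs are shown. Capitals mark the seed, bases 2 to 8.
hsa-miR-3614-5p: cCACUUGGaucugaaggcugccc
hsa-miR-3614-3p: uAGCCUUCagaucuugguguuuu
hsa-miR-6742-5p: aGUGGGGUgggacccagcuguu
hsa-miR-6742-3p: aCCUGGGUuguccccucuag

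None of these 4 mature microRNAs shares its seed with another of them, and neither hairpin overlaps the peak beside it. The TRIM25 summit lay 21582 bp from the start of the gene and 4558 bp from its end, so that its promoter label does not mark the start of TRIM25. Over all 95 peaks, the authors' table named another gene for 32, including 6 of the 21 peaks in 3' UTRs.

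TRIM25, which attaches ubiquitin chains that activate the viral RNA sensor RIG-I, held 1 peak on chromosome 17 from 56891827 to 56892736. Its fold was 7.94 (6.52 to 9.57) on 106 RIP fragments, with a q-value of 3.16e-36. TRIM56, an interferon-inducible ligase acting in cytosolic DNA sensing, carried 6 peaks that each passed a q-value of 0.05 and together covered 38.9% of its 12487 bp span. The strongest, on chromosome 7 from 101087605 to 101089815, had a fold of 7.22 (6.20 to 8.37) on 173 RIP fragments, and its q-value of 2.39e-52 was the smallest of any TRIM peak. A 3' UTR peak of TRIM56 from 101093153 to 101093704 reached 5.66 (4.53 to 6.99), and the other 4 lay between 2.42 and 2.88. The intervals of the 2 stronger TRIM56 peaks lay wholly above the folds of the other 4. Their summits were 3094 and 7938 bp from the gene start.

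TRIM21, a cytosolic receptor for antibody-coated virus, was enriched 7.56-fold (4.92 to 11.2) on 22 fragments in its 3' UTR, at chromosome 11, 4384961 to 4385697. The summit lay 359 bp from the end of the gene. Its other peak, in exon 2 of 7, had a fold of 5.06 (3.50 to 7.12). TRIM38, which restrains NF-kB signalling, held 2 peaks in its 3' UTR with folds of 6.04 (3.82 to 9.17) and 5.06 (2.84 to 8.56) and an intron peak of 3.25 with a q-value of 0.0957. TRIM4, a further RIG-I ligase, held 4 peaks, all labelled intron 6 of 6 and all with a q-value under 0.05. Their folds ran from 3.34 to 5.47, and the deepest had 105 fragments and a fold of 4.88 (4.01 to 5.90). TRIM65, which acts on the sensor MDA5, held a 3' UTR peak of fold 2.81 (2.11 to 3.67) and a promoter-labelled peak of 1.61 with a q-value of 1.

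The retroviral restriction factor TRIM5 held a single peak of fold 4.73 (2.48 to 8.57) on 8 fragments, labelled intergenic in the authors' table although its summit lay in the RefSeq span. That span also holds TRIM6 and TRIM34, neither of which had a summit. TRIM22, an interferon-induced neighbour, had none. TRIM14, an adaptor at mitochondria that lacks a RING finger, held 2 summits. The stronger, on chromosome 9 between 98075222 and 98075581, reached 6.35 (4.17 to 9.33) and lay where the TRIM14 span overlaps NANS, and the authors' table labels it intron 2 of 5 of NANS. The peaks carry no strand, so the RNA of TRIM14 and of NANS cannot be told apart there. Over all TRIM peaks, 12 had their summit in the span of another gene as well, 3 of them in a protein-coding gene, and the same limit holds.

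The transcription cofactors with a PHD finger and a bromodomain differed from each other. TRIM33, a ligase and chromatin reader known for its part in TGF-beta signalling through SMAD4, held 3 peaks. Its 3' UTR peak on chromosome 1 from 114397296 to 114397838 reached 9.57 (7.54 to 11.98) on 73 fragments. At the other end of the gene, a promoter-labelled peak from 114509809 to 114510287, with its summit 1152 bp from the gene start, had a fold of 8.99 (5.86 to 13.3) on 22 fragments. These intervals overlap widely. The weakest TRIM33 peak, also in the 3' UTR, had a fold of 2.64 (1.67 to 4.01) and a q-value of 0.0992.

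TRIM24, a coregulator of nuclear receptors and a ligase for p53, held 6 peaks along its 129738 bp span, 5 of them with a q-value under 0.05. The 3' UTR peak on chromosome 7 from 138584808 to 138585733 had a fold of 6.53 (5.33 to 7.93) on 99 fragments. Peaks in exon 5 of 19 and exon 4 of 19 had folds of 6.14 (4.10 to 8.89) and 5.54 (3.89 to 7.68), which overlap that of the 3' UTR. TRIM66, a relative without a RING finger, held 8 peaks, of which 3 had a q-value under 0.05. All rested on few fragments, 51 over the 8 together, and the highest fold was 5.23 (2.81 to 9.23) in intron 10 of 19. Among the 3, those on chromosome 11 from 8667807 to 8668526 and from 8669734 to 8670043 are labelled intergenic in the authors' table. TRIM28, the corepressor that KRAB zinc finger proteins recruit to silence retroelements, held no peak in its 6652 bp span on chromosome 19.

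Of 10 genes for partners of TRIM28 in gene silencing, 8 held a peak, against 49.3% of all protein-coding genes, and each of the 8 had one at a q-value under 0.05, against 38.9%. The genes CBX3 and HDAC2 held none. The highest folds were 8.68 (5.92 to 12.3) in ATF7IP, a cofactor of the methyltransferase SETDB1, and 7.76 (6.33 to 9.42) in an exon of SETDB1 itself.

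**Figure D4:**
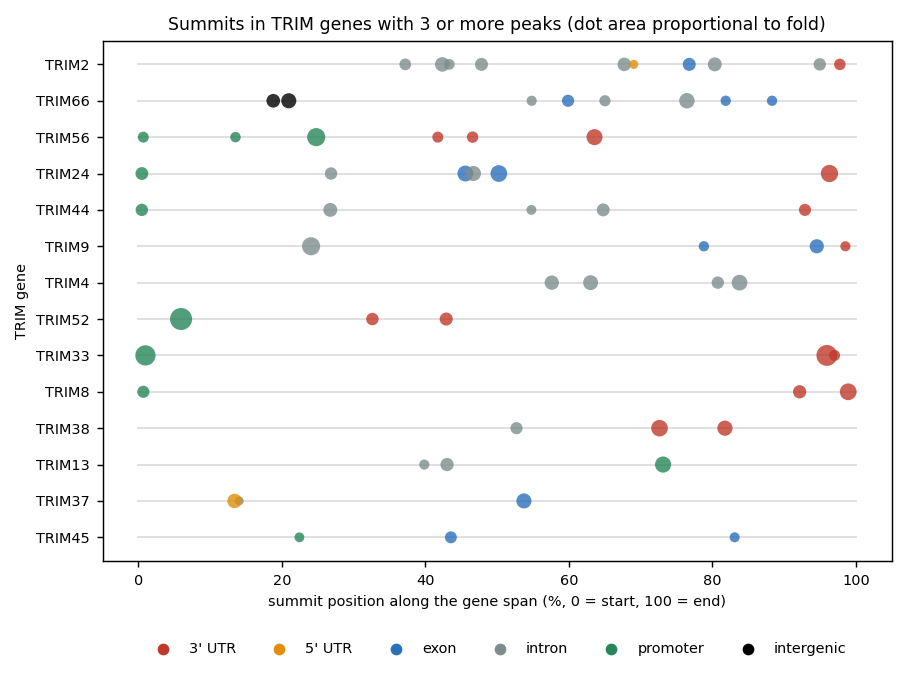
Position of each summit along the gene span (horizontal axis, percent from start to end) in the 14 TRIM genes with 3 or more peaks, with dot area proportional to fold and colour for the region label of the authors' table. The strongest TRIM33 peaks lie at opposite ends of the gene. All summits of TRIM56 lie between 0.681% and 63.6% of the span, all of TRIM2 between 37.2% and 97.8%, and all of TRIM66 between 18.8% and 88.3%.

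The members with NHL repeats or a filamin domain held a peak in 5 of 5 genes, against 49.3% of all protein-coding genes, and in 4 at a q-value under 0.05, against 38.9%. TRIM2 and TRIM71 span over 50 kb, where 68.9% of protein-coding genes held a peak. TRIM2, which targets neurofilament light chain in neurons, held 10 peaks, the most of any TRIM gene, over a span of 187155 bp. Its best-supported peak, in exon 6 of 12 on chromosome 4 from 153295538 to 153296209, had 166 fragments and a fold of 3.71 (3.17 to 4.31) over an input level of 28. The authors' table names this peak by ANXA2P1, a pseudogene whose span overlaps that of TRIM2, although the summit lay outside the pseudogene. The 3' UTR peak of TRIM2 had a fold of 2.91 (2.25 to 3.71). The highest fold in the gene, 4.65 (3.11 to 6.73), was in intron 1 of 11 on 25 fragments, and 7 of the 10 peaks were intronic.

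TRIM3, a close relative of TRIM2, reached 6.89 (4.01 to 11.3) in its 3' UTR, at chromosome 11, 6448473 to 6449126, with the summit 47 bp from the end of the gene. Its exon 6 peak had a fold of 3.77 (2.19 to 6.15), and the intervals overlap. TRIM32, a muscle ligase, reached 3.44 (2.45 to 4.71) in its 3' UTR, at a peak whose summit also lies in the span of ASTN2. TRIM45 reached 3.14 (1.96 to 4.81) in exon 2 of 6. TRIM71, a stem cell protein and a classical target of let-7 microRNAs, held 1 exon peak, which rested on 2 fragments and reached 1.83 (0.927 to 4.52), with a q-value of 1.

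Membrane-bound members and those with a MATH or ARF domain held a peak in 4 of 4 genes, against 49.3% of all protein-coding genes, and in 3 at a q-value under 0.05, against 38.9%. TRIM59, anchored in membranes, had the third highest fold among genes with a TRIM symbol, 9.15 (7.25 to 11.4) on 76 fragments, on chromosome 3 from 160438159 to 160438934. The authors' table labels it exon 3 of 19 of a transcript of the readthrough gene TRIM59-IFT80. TRIM13, an endoplasmic reticulum ligase, reached 5.72 (4.19 to 7.63) at a peak labelled from the start of KCNRG, and its 3 summits also lie in the span of the non-coding gene DLEU2. TRIM37, mutated in mulibrey nanism, reached 4.99 (2.96 to 8.03) in exon 18 of 25 and 4.63 (2.43 to 8.38) in its 5' UTR. TRIM23, which has an ARF domain, had 1 intron peak on 3 fragments with a q-value of 1.

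Members that end after the coiled coil, or have no such C-terminal domain, included the highest fold among genes with a TRIM symbol. TRIM52 reached 10.7 (8.48 to 13.2) with 79 fragments, on chromosome 5 from 181259727 to 181260658, with its summit 718 bp from the start of the gene. The q-value was 5.66e-34. The 2 other TRIM52 peaks, in the 3' UTR, had folds of 3.75 (2.29 to 5.89) and 3.40 (1.87 to 5.86), the second with a q-value of 0.0897, so the interval of the peak near the start lay above both. Both 3' UTR summits also lie in the span of the non-coding gene CTC-338M12.4. TRIM8, a regulator of cytokine signalling through SOCS1, held a 3' UTR peak of fold 6.16 (4.75 to 7.85) whose summit lay 147 bp from the gene end, a second of 3.88 (3.05 to 4.87), and one near the gene start of 3.25 (2.39 to 4.32). TRIM44, which lacks a RING finger, held 5 peaks and the most fragments at any TRIM summit, 219. That peak, 727 bp from the gene start on chromosome 11 from 35663340 to 35663806, reached 3.37 (2.94 to 3.84) over an input level of 41.0. The highest TRIM44 fold, 4.24 (2.16 to 7.91), lay in an intron on 7 fragments, and its interval includes that of the deeper peak. TRIM61 held 2 peaks on 4 fragments each, neither with a q-value under 0.05.

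**Figure D5:**
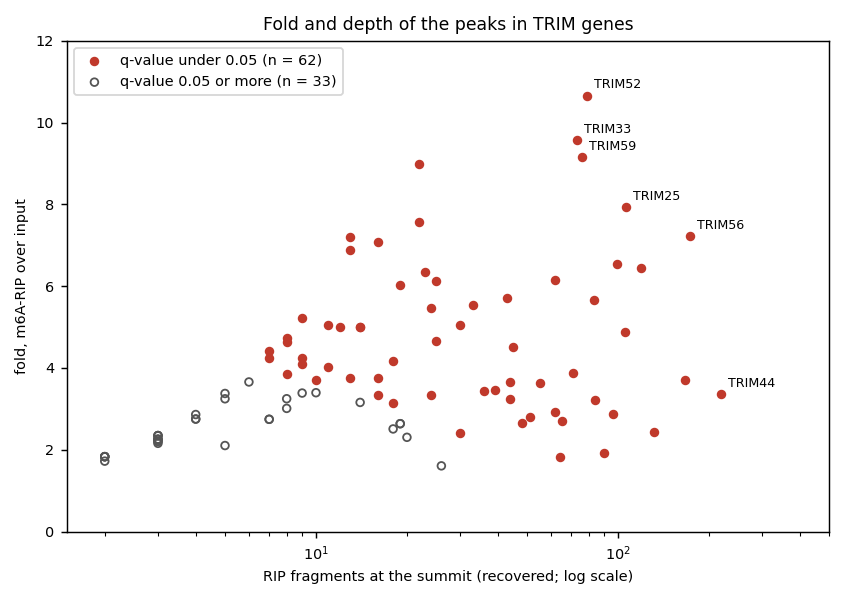
Fold of m6A-RIP over input (vertical axis) against the recovered number of RIP fragments at the summit (horizontal axis, log scale) for the 95 TRIM peaks, filled where the q-value was under 0.05 (62 peaks) and open otherwise (33 peaks). TRIM52, TRIM33 and TRIM59 combine the highest folds with 73 to 79 fragments, TRIM44 has the most fragments at a low fold, and open points lie at the left and along the lower edge.

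The COS box members, which bind microtubules or muscle filaments, held a peak in 2 of 8 genes with a TRIM symbol, both at a q-value under 0.05, against 49.3% and 38.9% of all protein-coding genes. MID1 and MID2, COS box genes under other symbols, both held a peak at a q-value under 0.05. TRIM9, a neuronal ligase, reached 7.21 (4.20 to 11.8) in intron 1 of 9, on chromosome 14 from 51066019 to 51066516, on 13 fragments over an input level of 0.296. Its other 3 peaks had folds of 2.26 to 4.41. TRIM54, one of the muscle RING finger genes, had a peak 259 bp from its start of fold 3.65 (2.69 to 4.86) and one labelled from the start of UCN of fold 3.16 with a q-value of 0.141. TRIM55 and TRIM63, the other muscle RING finger genes, and TRIM36, TRIM42, TRIM46 and TRIM67 held none.

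Of the 42 members with a PRY-SPRY domain or not classed here, 15 held a peak, against 49.3% of all protein-coding genes, and 12 did at a q-value under 0.05, against 38.9%. Beside those above, TRIM41 reached 6.45 (5.35 to 7.70) with 119 fragments, on chromosome 5 from 181223982 to 181224642, 1078 bp from its start, with a q-value of 1.06e-33. TRIM72, a membrane repair protein of muscle, had an intron peak of 4.18 (2.61 to 6.42), and TRIM11 a peak of 3.46 (2.50 to 4.69). The TRIM11 summit also lies in the span of the non-coding gene TRIM11-AS1. Low folds over high input were seen in TRIM47, with 2.43 (2.04 to 2.88) on 131 fragments in the 3' UTR, and in TRIM16, a galectin-binding autophagy protein, with 1.92 (1.55 to 2.35) on 90 fragments. Both had a q-value under 0.05. TRIM62, TRIM68 and TRIM7 held peaks of fold 1.83 to 2.75, none with a q-value under 0.05.

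Some of the members without a peak lay in clusters of related genes. On chromosome 6 from 30102897 to 30343729, in the major histocompatibility complex, TRIM10, TRIM15, TRIM26, TRIM31, TRIM39 and TRIM40 held none. On chromosome 11, none was held by TRIM49B, TRIM51G and TRIM64C, which lie from 48975498 to 49059112, or by TRIM49, TRIM49C, TRIM64, TRIM64B and TRIM77, which lie from 89710299 to 90073531. Their copies are similar in sequence, and how multiply aligned reads were treated is not given in the sources used here. TRIM43, TRIM43B, TRIM48 and TRIM51 held none either. TRIM7, TRIM41 and TRIM52, neighbours on chromosome 5 from 181193924 to 181261143, all held a peak. So did 4 of 7 genes in the cluster on chromosome 11 from 4384897 to 6474459, namely TRIM21, TRIM68, TRIM5 and TRIM3, and all 5 TRIM genes of chromosome 17. Of all protein-coding genes 49.3% held a peak, and 4 of 7 is near that share. Neither TRIM7 nor TRIM68 held a peak at a q-value under 0.05. The remaining genes without a peak were TRIM17, TRIM27, TRIM29, TRIM35, TRIM50, TRIM58, TRIM60, TRIM69 and TRIM75.

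Of 94 TRIM summits in genes of known strand, 17 lay in the last 10% of the span (18.1%, Wilson interval 11.6 to 27.1), against 21.7% over all protein-coding genes (a summit counted once for each gene that spans it), and 10 lay in the first 10% (10.6%, 5.88 to 18.5), against 10.2%. At a q-value under 0.05 the share in the last 10% was 18.03%, against 28.6%. Among 3' UTR peaks the median distance from summit to gene end was 4548 bp, and 15 TRIM genes held such a peak. The highest peak of a gene lay in the 3' UTR in 10 TRIM genes, in an intron in 10, under a promoter label in 10, in an exon in 5 and in sequence labelled intergenic in 1.

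Genes that work with TRIM proteins were described from lists of related genes. Of 7 TRIM family genes under other symbols, 4 held a peak, all at a q-value under 0.05, against 49.3% of all protein-coding genes with any peak and 38.9% at that q-value. MID1, a microtubule-bound ligase, had a fold of 10.8 (8.19 to 13.9) in its 3' UTR, close to that of TRIM52, and TRIML2 had 8.68 (5.92 to 12.3). Of 15 ubiquitin-activating and conjugating enzyme genes, 12 held a peak, against 49.3% of all protein-coding genes. At a q-value under 0.05, 7 did, which is near the background of 38.9%. The highest folds were in the 3' UTRs of the activating enzyme UBA6 (8.80, 6.86 to 11.1) and the conjugating enzyme UBE2L3 (6.55, 5.04 to 8.38). UBA1, UBE2N and UBE2V2 held none.

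Of 15 antiviral signalling genes on which TRIM proteins act, 12 held a peak, against 49.3% of all protein-coding genes. At a q-value under 0.05, 11 did, against 38.9%. TRAF3, an adaptor of interferon induction, had a fold of 9.87 (7.59 to 12.6) in its 3' UTR. RIGI, the sensor that TRIM25 and TRIM4 modify, had 7.74 (4.84 to 11.9) in an intron. CGAS, TBK1 and IRF7 held none.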

How the data were processed

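m6A was measured in HCCLM3 cells with 1 m6A-RIP and 1 input library. Alignment with HISAT2 and peak calling with MACS2 on hg38 are named in the submitters' processing notes, without versions. The authors deposited 1 annotated peak table made from both libraries. Per the file headers it gives a fold enrichment for each peak, a ratio on a linear scale. The headings of the deposited −log10 p-value and −log10 q-value columns were damaged, and both were identified from the values: 99.99% of the deposited scores are 10 times the first column rounded down. These are the authors' values and serve only to describe, rank and filter peaks.

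Gene spans, biotypes, symbols and sequences came from RefSeq tables of GRCh38.p14, which has the main chromosomes of hg38. A promoter sequence was matched for 58 of 73 TRIM genes. Strand came from these sequences or the deposited gene strand and was known for 64 TRIM genes. RIP fragments and input level were recovered from fold and p-value with a scaling factor of 0.642 and a pseudocount of 1. Whole numbers met both values in 100% of peaks (tolerance 0.001 in −log10 p), by 1 number alone in 98.2%. The recovery was also tested on simulated data. The implied RIP library is 1.56 times the input. Total depth is unknown.

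No test was made, since each group holds 1 library. Members, domain classes and gene lists were chosen with earlier results of these data known. Every member is named; position and interval are given for the 12 members of highest fold, the 6 with most peaks, the 3 of highest −log10 p and the highest of each domain class, and of each related list the 2 genes of highest fold. Alternatives changed the threshold, the fragment minimum, the region labels, the assignment of peaks to genes and the pseudocount. Python 3.11.15, pandas 2.3.3 and SciPy 1.17.1 were used.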

Additional observations from a re-analysis of the deposited data

How the results depend on the processing

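No paired analysis was possible because each group holds 1 library and no result comes from a test. All values are for TRIM genes and over all peaks unless stated. The share of TRIM genes with a peak, 49.3%, became 28.8% at a q-value under 1e-5 and 30.1% with a fold of at least 4, where all protein-coding genes stood at 28.4% and 30.9%. By the nearest transcript start, here and below without intergenic-labelled peaks, it was 39.7%, against 46.3%. The median of the highest fold, 4.86, became 6.45 at a q-value under 1e-5 and 6.40 with a fold of at least 4, both of which select strong peaks. Over all protein-coding genes these were 6.27 and 6.03. Without the pseudocount it was 8.18, against 8.67 over all protein-coding genes. The 3' UTR share of 22.1% became 36.1% at a q-value under 1e-5, against 34.2% over all protein-coding genes. With at least 10 RIP fragments it was 32.8%, against 28.6%. The intron share of 30.5% became 16.7% and 19.7% under the same settings. The share of summits in the last 10% of the span, 18.1%, became 10% by the nearest transcript start, counting only summits inside the named gene. Over all protein-coding genes it also fell, from 21.7% to 11.4%. The cause was not tested. The values under the other 29 combinations of result and alternative stayed within the interval of the first value. Low fragment numbers limit the weakest peaks, with 14 of 95 resting on at most 3.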

Other observations

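The authors' table names a TRIM gene for 85 peaks, those labelled intergenic included. Of these, 22 have their summit outside that gene and are not among the peaks described above. In 9 of them the summit lay in another protein-coding gene. The 3 peaks named for TRIM14 lay in CORO2A, with folds of 3.16 to 5.08. A 3' UTR peak named for TRIM8, of fold 5.95 (3.27 to 10.3), lay in SUFU, an inhibitor of Hedgehog signalling. One named for TRIM36, of fold 4.67 (2.72 to 7.63), lay in PGGT1B.

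The highest folds among these 22 peaks were in sequence labelled intergenic on chromosome 2, between TRIM43B and TRIM43, which held no peak themselves. A peak from 95532385 to 95532861 reached 10.8 (7.52 to 14.99) on 32 fragments, and another from 95536932 to 95537304 had 10.7 (7.15 to 15.5) on 25. Their distances to the TRIM43B start that named them were -47654 and -52201 bp, where a negative value is upstream. No protein-coding gene of the RefSeq table holds either summit, and 3 weaker peaks lay in the same stretch, with folds of 2.90 to 3.85.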
